A study of Mus musculus with 12 samples.

Results

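The streptavidin pulldown of biotinylated Mist1 from plasmablasts (PBs) was done in 2 experiments, and the peaks described here are those that each experiment found alone. A peak was chosen by its position: it counted as a single-experiment peak where it shared no base with any peak of the other experiment, and as a shared peak otherwise. By this rule 4574 of the 29413 peaks of experiment 1 (15.6%) and 5645 of the 30247 peaks of experiment 2 (18.7%) were single-experiment peaks, 10219 of 59660 in all. The experiments are numbered in the order of their sample records. The PBs came from the spleen of C57BL/6 mice with the genotype Bhlha15(fl/fl) R26(BirA/BirA), in which the floxed Mist1 gene (Bhlha15) also carries a biotin acceptor sequence and the biotin ligase BirA is made from the Rosa26 locus. CD43- B cells were kept for 4 days with LPS before CD138+ cells were enriched on magnetic beads. Both experiments thus have the same tagged allele and no untagged library was used here. RNA-seq covered 10 further libraries, 2 in each of 5 groups. Splenic plasma cells (PCs), sorted as TACI+CD138+ cells 7 days after immunization with NP-KLH, were labelled wildtype (the control, Bhlha15 fl/fl without Cre in the study's methods) or Cd23-Cre Bhlha15(fl/fl), in which Cre made under the Cd23 promoter starts to delete Mist1 in immature B cells. PBs of the induced germinal centre B cell culture (iGB), in which B cells grow on a feeder line, were sorted at day 8 and had floxed Xbp1 without Cre, written Xbp1(fl/fl), or with it, written Cd23-Cre Xbp1(fl/fl), or were Bhlha15(CreER/CreER), the last with a Cre insertion in both Mist1 alleles. All these mice were C57BL/6. No label says that 2 libraries of a group came from separate mice or cultures, so the p-values measure only the spread between these samples.

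Mist1 is a basic helix-loop-helix transcription factor of secretory cells, known from pancreatic acinar cells, gastric chief cells and PCs. Factors of this family bind as dimers to the E-box, whose letters are CANNTG, and differ in the centre bases that they prefer. In B cells the E proteins E2A, E2-2 and HEB bind the same kind of element, and the Id proteins hold them off DNA.

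The windows below are the central 200 bp of single-experiment peaks, read from the mm9 reference on the plus strand, with each E-box in capitals. They are shown because the results turn on 2 E-boxes, CATATG and CAGCTG, and because the genes beside them are discussed further on. The first 4 hold CATATG and lie within 2.5 kb of a transcription start site (TSS) of Dnajb9 (chr12:45313201-45313400, experiment 2), Ikzf1 (chr11:11598387-11598586, experiment 2), Ms4a1 (chr19:11342523-11342722, experiment 1) and Cd247 (chr1:167716574-167716773, experiment 1):
Dnajb9: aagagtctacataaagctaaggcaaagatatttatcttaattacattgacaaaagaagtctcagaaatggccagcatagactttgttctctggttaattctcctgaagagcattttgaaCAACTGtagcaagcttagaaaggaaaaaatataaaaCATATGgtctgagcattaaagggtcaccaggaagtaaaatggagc
Ikzf1: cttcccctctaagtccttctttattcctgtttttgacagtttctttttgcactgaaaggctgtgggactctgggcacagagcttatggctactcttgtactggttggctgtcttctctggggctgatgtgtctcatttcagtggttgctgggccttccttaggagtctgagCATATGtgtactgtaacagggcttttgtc
Ms4a1: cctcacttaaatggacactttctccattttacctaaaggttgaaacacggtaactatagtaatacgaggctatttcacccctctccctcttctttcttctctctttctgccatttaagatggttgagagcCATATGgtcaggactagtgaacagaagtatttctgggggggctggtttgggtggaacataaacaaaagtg
Cd247: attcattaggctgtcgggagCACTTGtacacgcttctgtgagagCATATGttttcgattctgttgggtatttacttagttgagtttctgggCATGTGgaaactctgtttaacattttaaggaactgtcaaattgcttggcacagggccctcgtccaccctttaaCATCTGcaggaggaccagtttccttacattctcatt

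The next 3 hold CAGCTG, the E-box most frequent in Mist1 peaks of either kind, and lie as near to a TSS of Prdm1 (chr10:44180591-44180790, experiment 2), Ebf1 (chr11:44433330-44433529, experiment 1) and Myc (chr15:61815050-61815249, experiment 2):
Prdm1: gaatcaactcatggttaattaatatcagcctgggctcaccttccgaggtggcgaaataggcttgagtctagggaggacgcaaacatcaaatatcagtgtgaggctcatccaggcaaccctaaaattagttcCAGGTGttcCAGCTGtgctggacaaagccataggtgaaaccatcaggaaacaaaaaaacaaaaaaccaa
Ebf1: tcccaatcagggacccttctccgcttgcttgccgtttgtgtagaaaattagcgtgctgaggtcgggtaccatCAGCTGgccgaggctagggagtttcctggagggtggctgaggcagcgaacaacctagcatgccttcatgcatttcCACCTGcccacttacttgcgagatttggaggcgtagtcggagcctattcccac
Myc: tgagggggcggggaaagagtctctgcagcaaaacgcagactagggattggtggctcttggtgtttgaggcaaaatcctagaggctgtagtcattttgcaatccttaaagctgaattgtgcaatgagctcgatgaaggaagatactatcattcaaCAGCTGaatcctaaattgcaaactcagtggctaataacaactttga

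The last 3 belong to 3 of the genes that had single-experiment peaks only and whose RNA differed in Mist1-deficient PCs: Cldn7 (chr11:69783648-69783847, experiment 1), Aire (chr10:77490599-77490798, experiment 2) and B3galnt1 (chr3:69411860-69412059, experiment 2):
Cldn7: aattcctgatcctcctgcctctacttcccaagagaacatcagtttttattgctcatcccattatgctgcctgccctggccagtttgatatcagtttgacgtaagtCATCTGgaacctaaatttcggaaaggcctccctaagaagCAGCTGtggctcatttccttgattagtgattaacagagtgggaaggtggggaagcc
Aire: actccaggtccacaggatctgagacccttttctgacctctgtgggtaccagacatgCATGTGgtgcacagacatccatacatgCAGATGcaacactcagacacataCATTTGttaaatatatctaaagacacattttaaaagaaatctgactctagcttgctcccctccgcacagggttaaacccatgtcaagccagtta
B3galnt1: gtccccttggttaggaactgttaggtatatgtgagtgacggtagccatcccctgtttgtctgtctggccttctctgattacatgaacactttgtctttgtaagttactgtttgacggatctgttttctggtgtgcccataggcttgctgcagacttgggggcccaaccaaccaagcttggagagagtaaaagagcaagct

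Each of the 4 windows of the first group held 1 CATATG and each of the second group 1 CAGCTG. Of all 17 single-experiment peaks within 2.5 kb of a TSS of a listed gene, 5 had CATATG in the central window, 5 had CAGCTG, 4 had another E-box only and 3 had none. Of the 8 single-experiment peaks of the 7 genes whose RNA differed in PCs, 0 had CATATG, 1 had CAGCTG, 4 had another E-box only and 3 had none. Windows that touch an annotated exon are among those not shown.

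The single-experiment peaks were narrow. Their median width was 474 bp in experiment 1 and 503 bp in experiment 2, with ranges of 237 to 3108 bp and 235 to 2178 bp, against medians of 858 and 921 bp for the shared peaks. They covered 8.82% and 10.7% of the bases in all peaks of their experiment. Of the peaks under 400 bp, 54.7% (exact 95% interval 52.8 to 56.6) were found in experiment 1 alone and 61.9% (59.9 to 63.9) in experiment 2 alone. Of the peaks of 1200 bp or more, the shares were 1.38% (1.12 to 1.68) and 2.21% (1.90 to 2.56). A wide peak has more bases to share, so width and the rule are not independent and these values are a description. The intervals cover counting error only, and the peaks of 1 library are not replicates, so a difference between single-experiment and shared peaks is set here beside the difference between the 2 experiments. A comparison of 2 libraries with 2 could not go below p = 0.33 in an exact permutation test, and none was run on the peaks.

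**Figure D1:**
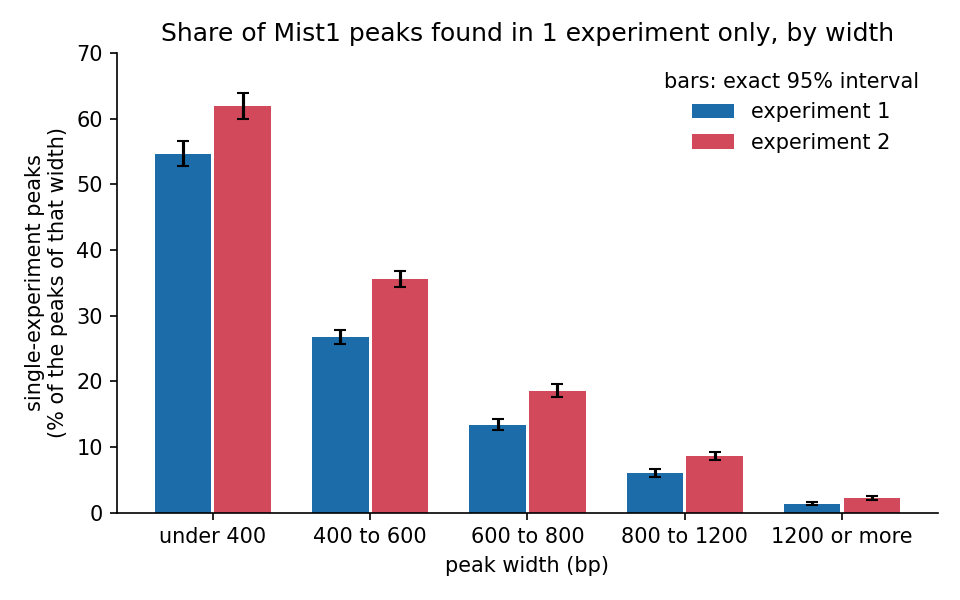
Share of the peaks of each width class (bp) that were found in 1 experiment only, for experiment 1 (blue) and experiment 2 (red), with exact 95% intervals as error bars. The share falls from 54.7% and 61.9% in the narrowest class to 1.38% and 2.21% in the widest, and experiment 2 lies above experiment 1 in each class.

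Of the 5 widest single-experiment peaks of each experiment, 4 were at a start site in both. The widest of experiment 1 (3108 bp, chr11:62269406-62272513) lay over a TSS of Ncor1, a corepressor of nuclear receptors, and the nearest peak of experiment 2 was 22180 bp away. It was followed by peaks at Phf3 (2465 bp), at Marcks (2078 bp), which encodes a protein kinase C substrate, at Hmga1 (1799 bp), a chromatin architectural protein, and a distal peak with Cbx8 as its nearest gene (1793 bp). In experiment 2 the widest (2178 bp, chr14:31406489-31408666) had Prkcd as its nearest gene, with its centre 13430 bp downstream of the TSS, and the next were at start sites of Lrrc68 (1977 bp), Cic (1894 bp), Tnfrsf9 (1890 bp) and Cnot3 (1859 bp). Tnfrsf9 encodes the costimulatory receptor 4-1BB, and Cic a repressor. Of these 10 wide peaks, those at Hmga1 and near Cbx8 came within 153 and 179 bp of a peak of the other experiment, and those at Cnot3 and near Prkcd within 325 and 568 bp.

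Few single-experiment peaks lay directly beside a peak of the other experiment. The median gap to the nearest peak of the other experiment was 7943 bp in experiment 1 and 9241 bp in experiment 2. To the nearest shared peak of the same experiment it was 10375.5 and 11290 bp. The spacing to be expected from the number of peaks was not worked out. The gap was at most 100 bp for 51 and 64 peaks, and at most 1 kb for 778 (17.0%) and 875 (15.5%). At most 10 kb separated 2493 (54.5%) and 2926 (51.8%) from a peak of the other experiment, and 2081 (45.5%) and 2719 (48.2%) lay farther away. At the limit of the rule, the single-experiment peaks with the smallest gaps included 1 near Grap that directly adjoined a peak of experiment 2, with a gap of 0 bp, 1 near Zfp238 with 3 bp and 1 near Trim8 with 8 bp in experiment 1, and peaks near Gm9830 (8 bp) and 1700057K13Rik (9 bp) in experiment 2. Just inside sharing were peaks near Umps (6 bp shared), Acoxl (18 bp) and Ift27 (22 bp) in experiment 1 and near B3gnt2 (6 bp), 2310035K24Rik (7 bp) and Rnls (13 bp) in experiment 2. These peaks at the limit are named by the gene with the nearest TSS, which can be remote. It was 273450 bp away for Rnls, 70207 bp for 1700057K13Rik and 45661 bp for Zfp238.

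**Figure D2:**
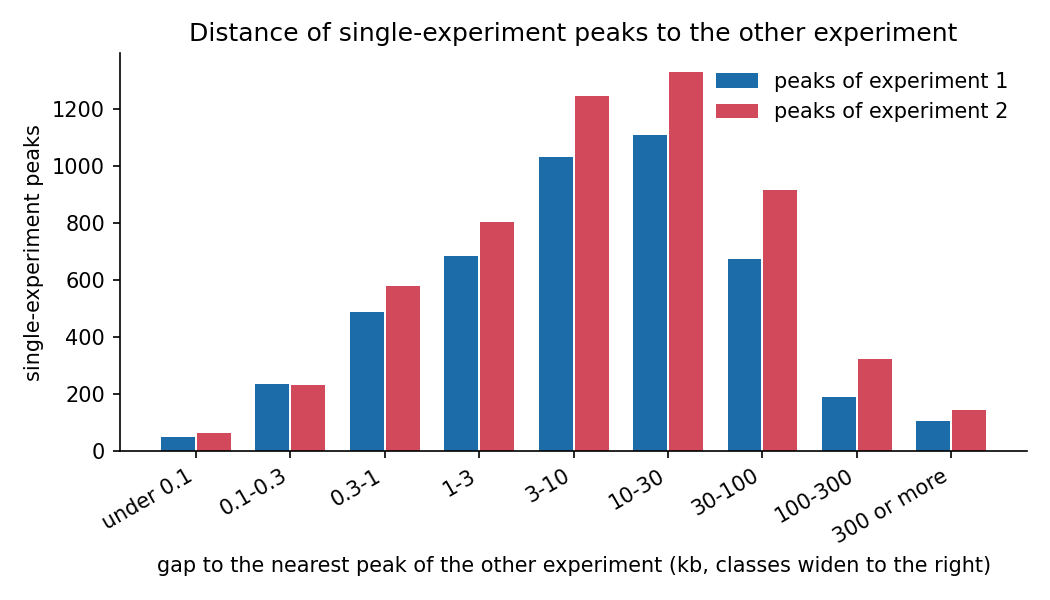
Number of single-experiment peaks by the gap (kb, in classes that widen to the right) to the nearest peak of the other experiment, for the peaks of experiment 1 (blue) and experiment 2 (red). The fullest class is 10 to 30 kb, with 1109 and 1331 peaks, while 51 and 64 lie under 100 bp.

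Single-experiment peaks lay less often at start sites. Of those in experiment 1, 879 (19.2%, 18.1 to 20.4) reached within 1 kb of a protein-coding TSS, 2095 (45.8%) lay in a gene body and 1600 (35.0%) were distal, outside coding genes. In experiment 2 the numbers were 1080 (19.1%, 18.1 to 20.2), 2465 (43.7%) and 2100 (37.2%). For the shared peaks the TSS shares were 33.0% and 32.9%. The single-experiment share was thus apart from the shared one by -13.7 points (-15.02 to -12.45) in experiment 1 and -13.8 points (-14.96 to -12.60) in experiment 2, while the 2 experiments had nearly the same shares. Width accompanied this difference. Once shared peaks were weighted to the widths of the single-experiment peaks, their TSS share was 19.3% and 18.6%, and the difference was -0.056 points (-1.39 to 1.28) in experiment 1 and 0.577 points (-0.655 to 1.81) in experiment 2. In the narrowest class, 10.3% and 9.89% of single-experiment peaks and 12.8% and 12.6% of shared peaks were at a TSS. Single-experiment peaks within 1 kb of a peak of the other experiment were at a TSS more often (28.4% and 31.1%) than those 1 to 10 kb away (15.3% and 14.97%) or farther (18.98% and 18.4%).

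Chromosome X stood above the autosomes in the share of peaks found once. There, 98 of 437 peaks of experiment 1 (22.4%, 18.6 to 26.6) and 101 of 433 of experiment 2 (23.3%, 19.4 to 27.6) were single-experiment peaks, against 15.5% and 18.6% on the autosomes. Peaks on chromosome X were also narrower, with medians of 599 and 643 bp against 781 and 824 bp. Among peaks of 400 to 600 bp the share was 25% and 28.4% on chromosome X and 26.8% and 35.7% on the autosomes. Among peaks of 800 to 1200 bp it was 9.52% (8 of 84) and 15.9% (14 of 88) on chromosome X and 5.99% and 8.52% on the autosomes. Under 400 bp it was 59.3% and 58.5% on chromosome X and 54.6% and 62.0% on the autosomes, and at 600 to 800 bp 11.8% and 14.2% against 13.5% and 18.6%. At 1200 bp or more it was 9.38% (3 of 32) and 2.22% (1 of 45) against 1.34% and 2.22%. From 400 to 800 bp chromosome X thus lay below the autosomes in both experiments. The excess on chromosome X was therefore not seen in every width class, and the part of width in it was not tested.

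CATATG was more frequent in the single-experiment than in the shared peaks of both experiments. Its central bases TA make it a palindrome, and it is an element that has been described for Mist1 in other secretory cells. In the central 200 bp, 999 of 4574 single-experiment peaks of experiment 1 held CATATG (21.8%, 20.7 to 23.1), as did 1340 of 5645 in experiment 2 (23.7%, 22.6 to 24.9). Shared peaks held it in 12.1% and 11.5%, and 200 bp windows placed every 20 kb over the genome in 6.32%. The difference between single-experiment and shared peaks was 9.76 points (8.50 to 11.03) in experiment 1 and 12.2 points (11.1 to 13.4) in experiment 2, while the intervals of the 2 single-experiment shares overlapped. The windows of Dnajb9, Ikzf1, Ms4a1 and Cd247 printed above belong to these.

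CAGCTG, the commonest E-box of Mist1 peaks, was about as frequent in the single-experiment peaks as in the shared ones before width was taken into account. At 200 bp, the window of all values that follow, CAGCTG was in 28.5% (27.2 to 29.8) and 30.4% (29.2 to 31.6) of the single-experiment windows. It was in 29.9% and 28.7% of the shared windows and in 7.29% of the genome windows. Within the same width classes it was less frequent in the single-experiment peaks, with a difference of -11.4 points (-13.0 to -9.70) in experiment 1 and -9.08 points (-10.7 to -7.48) in experiment 2. CATATG kept a difference in the opposite direction at matched widths, of 4.05 points (2.58 to 5.52) and 7.36 points (5.98 to 8.74). At 400 to 600 bp, for example, CATATG was in 24.0% and 27.1% of single-experiment and 18.4% and 18.3% of shared windows, and CAGCTG in 31.4% and 34.1% against 42.8% and 43.2%. In peaks of 800 to 1200 bp CATATG was in 7.18% of single-experiment and 10.7% of shared windows of experiment 1, and in 14.0% and 10.8% in experiment 2, so the direction was not the same in both. At 1200 bp or more it was in 5.21% (5 of 96) against 4.97% in experiment 1. In experiment 2 it was in 1.70% (3 of 176) against 5.59%, so an excess in both experiments was not seen in wide peaks.

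The 2 E-boxes were seldom in the same window. Both were in 137 (3.00%) and 186 (3.29%) of the single-experiment windows, CATATG without CAGCTG in 862 (18.8%) and 1154 (20.4%), CAGCTG without CATATG in 1165 (25.5%) and 1528 (27.1%), and neither in 2410 (52.7%) and 2777 (49.2%). Any E-box at all was in 83.6% and 84.0% of single-experiment windows, 78.2% and 77.4% of shared windows and 65.7% of genome windows. Both E-boxes were densest at the middle of the peaks. In the 40 bp just before the centre, CATATG occurred 1.55 and 1.58 times per kb in single-experiment peaks and 0.773 and 0.763 times per kb in shared peaks. At 380 bp before the centre it occurred 0.295 and 0.199 times per kb in the single-experiment peaks. CAGCTG had 2.25 and 2.36 per kb just before the centre of single-experiment peaks and 2.13 and 2.04 in shared peaks.

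**Figure D3:**
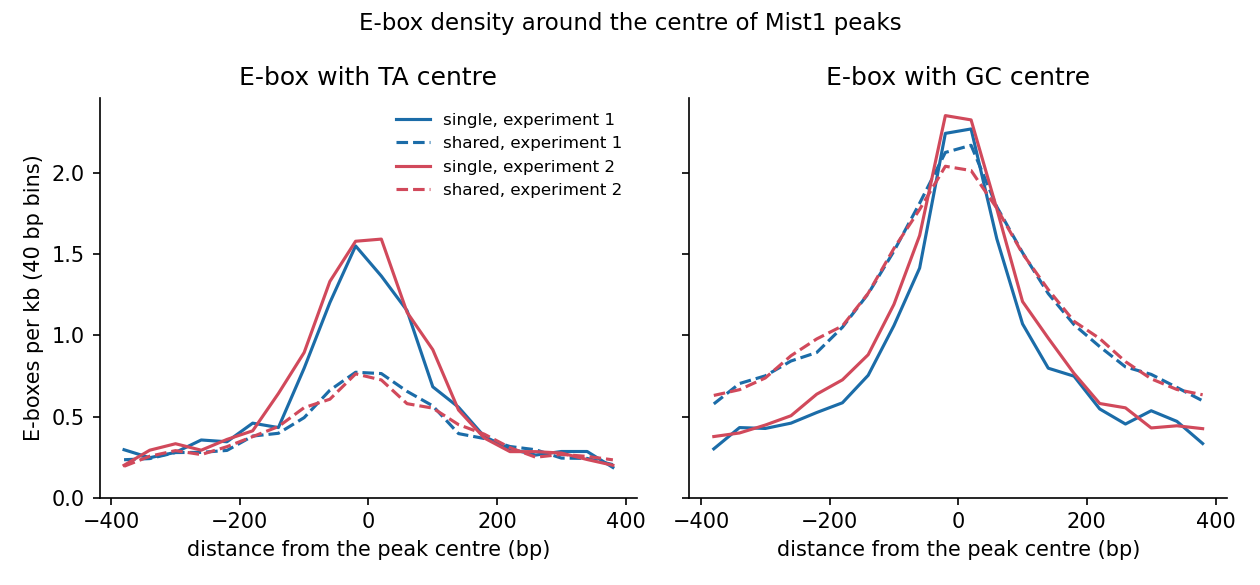
Density of the E-boxes with centre bases TA (CATATG, left) and GC (CAGCTG, right), in E-boxes per kb, by distance from the peak centre (bp, bins of 40 bp), for single-experiment (solid) and shared (dashed) peaks of experiment 1 (blue) and experiment 2 (red). With the TA centre the single-experiment lines reach 1.55 and 1.58 just before the centre against 0.773 and 0.763 for the shared lines. With the GC centre they reach 2.25 and 2.36 against 2.13 and 2.04 and are narrower.

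E-boxes were more frequent away from start sites. Any E-box was in 61.8% and 60.3% of the single-experiment windows at a TSS and in 88.6% and 89.0% of those in gene bodies, and CAGCTG in 17.2% and 19.2% against 31.8% and 34.5%. For CATATG, single-experiment and shared peaks also stood apart away from start sites. Among distal single-experiment peaks 29.0% (26.8 to 31.3) of experiment 1 and 30.6% (28.6 to 32.6) of experiment 2 held it, against 14.7% and 14.3% of the distal shared peaks. In gene bodies the shares were 24.1% and 26.04% against 17.1% and 16.3%. At start sites they were 3.53% (2.41 to 4.97) and 5.19% (3.94 to 6.68) against 3.93% and 3.53%, under the 6.32% of the genome windows, which the interval of experiment 2 includes. Distance from the other experiment's peaks went with it too. Within 1 kb of such a peak 10.8% and 11.8% of single-experiment peaks held CATATG, at 1 to 10 kb 19.1% in both experiments, and beyond 10 kb 28.2% and 31.1%. For CAGCTG these values were 25.1% and 28.8%, 28.7% and 29.8%, and 29.6% and 31.3%, with intervals that overlapped between neighbouring classes. CATATG also rose with distance from the nearest peak of the same experiment, and it did so in shared peaks too. Shared peaks held it in 8.55% and 8.18% within 1 kb, 11.8% and 11.6% at 1 to 10 kb, and 14.6% and 13.5% beyond. Single-experiment peaks held it in 18.5% and 19.2% at 1 to 10 kb and 28.6% and 31.1% beyond. Single-experiment peaks within 1 kb of the other experiment's peaks were also more often at a TSS. The part of each was not tested.

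**Figure D4:**
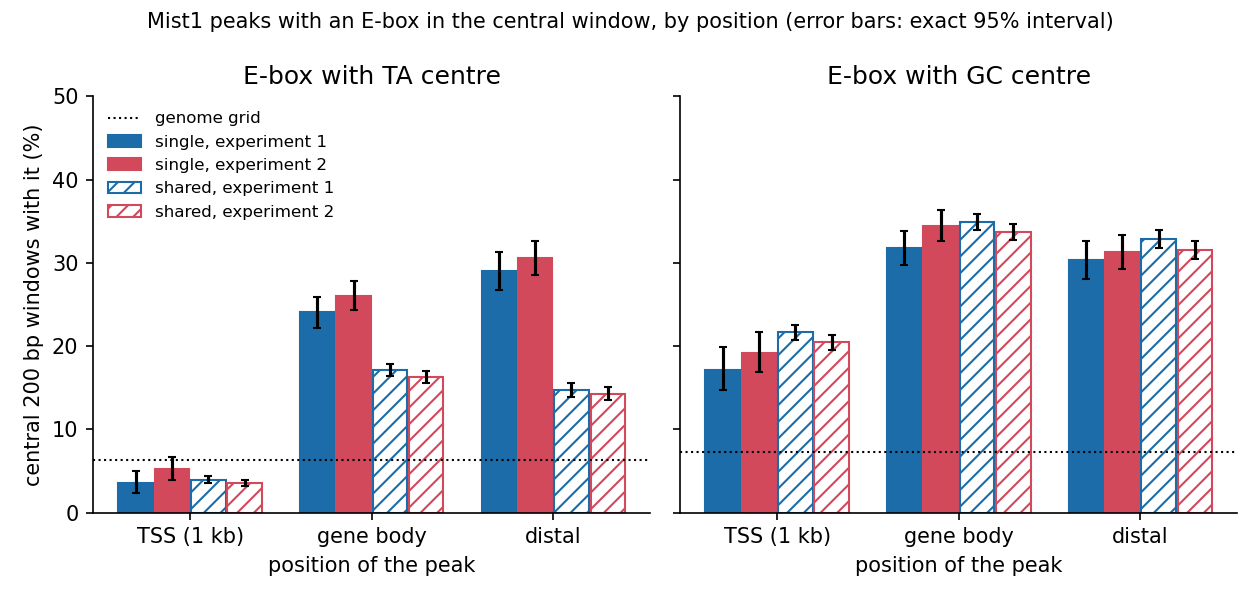
Percentage of the central 200 bp windows with an E-box of centre bases TA (CATATG, left) or GC (CAGCTG, right), by position of the peak (within 1 kb of a TSS, gene body, distal), for single-experiment (filled) and shared (hatched) peaks of both experiments, with exact 95% intervals as error bars and the genome windows as a dotted line. On the left the distal single-experiment bars stand at 29.0% and 30.6% and the distal shared bars at 14.7% and 14.3%, while at start sites all 4 bars lie between 3.53% and 5.19%.

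Base composition differed as well. The median GC content was 46.3% in the single-experiment peaks of both experiments, 48.6% in the shared peaks of both and 41.5% in the genome windows. CATATG has few G and C, so it was also compared within classes of GC content: at 40 to 45% GC it was in 32.5% and 35.9% of single-experiment and 21.3% and 20.1% of shared windows, and over all GC classes the difference was 7.54 and 10.3 points. GGGCGG, the core of the GC box, was in 10.6% and 10.1% of single-experiment and 15.9% and 15.8% of shared windows. CACATG was in 16.4% of single-experiment windows in both experiments and in 13.1% and 13.3% of shared windows, with 15.6% in the genome windows. The octamer ATGCAAAT was in 2.86% and 2.59% of single-experiment and 2.64% and 2.398% of shared windows. All motifs were searched on both strands.

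Single-experiment peaks lay near many genes of the B cell and PC programmes, nearly always beside shared peaks. Of 22089 protein-coding genes, 6940 (31.4%) had a single-experiment peak in the gene or within 10 kb of it, and 11927 (54.0%) a shared one. Genes with a shared peak were longer, with a median of 21912 bp against 15427 bp over all genes, and Bach2 spans 347305 bp. The gene lists were not matched to all genes in length or in shared peaks, so their counts are a description. Among 14 genes of B cell identity 10 (71.4%) had a single-experiment peak and all 14 a shared peak. Their single-experiment peaks came more from experiment 1 (19) than from experiment 2 (8), although experiment 2 had more such peaks in total. Bach2, a repressor that delays PC differentiation, had 6 of experiment 1 and 1 of experiment 2 beside 21 and 20 shared peaks. Pax5, the B cell commitment factor, had 3 and 0 beside 9 and 9, and Ebf1, which acts before it, had 3 and 4 beside 23 and 23. The Pax5 peak nearest its TSS (chr4:44724774-44725319) stopped 39 bp short of a peak of experiment 2.

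Among 9 regulators of PCs 7 (77.8%) had a single-experiment peak and all 9 a shared one. Prdm1, which encodes Blimp1, the factor that drives PC differentiation, had 2 of experiment 1 and 3 of experiment 2 beside 9 and 9 shared peaks. The window printed above lies -2137 bp from its nearest TSS, where negative distances are upstream. That TSS is an internal one: the peak lay in an intron of Prdm1, 720 bp from a peak of experiment 1. Ikzf1, which encodes Ikaros, had 4 and 1, Ikzf3 3 and 1, and the elongation factor gene Ell2 2 and 2. Irf4 had 1 and 0. Xbp1 and Bhlha15 itself had none, and their peaks were all shared (4 and 5 at Xbp1, 5 and 5 at Bhlha15). Among the E and Id protein genes, Tcf4, which encodes E2-2, had 5 and 4 and Tcf12, which encodes HEB, had 3 and 3, while Tcf3 had none.

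Of all protein-coding genes 31.4% had a single-experiment and 54.0% a shared peak. Of 15 PC surface and secretion genes 12 (80%) had a single-experiment peak, 1 or 2 peaks each, and 14 (93.3%) a shared one. Dnajb9, an ER chaperone of the unfolded protein response, was the only 1 of them with no shared peak. Its peak of experiment 2 (chr12:45313103-45313499, 397 bp) lay -2246 bp from the TSS, and the nearest peak of experiment 1 was 28446 bp away. A peak of experiment 2 at the TSS of Sdc1, which encodes the PC marker CD138, was 1243 bp wide. Of 10 genes described as Mist1 targets in other secretory cells 5 (50%) had a single-experiment peak. Copz2, a coat protein gene of vesicles, had 1 of experiment 2 at 773 bp from its TSS. Rab3d and Rab26, which encode GTPases of secretory vesicles, had shared peaks only. Of 11 cell cycle genes 6 (54.5%) had a single-experiment peak, among them Myc with 1 of experiment 2.

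Markers of other cell types were also looked at. Of 12 genes of nerve, muscle and liver only Ckm had a single-experiment peak, and 10 had no peak at all. Among 10 T cell markers 3 had one: Cd4 had 1 of each experiment and Zap70 1 of experiment 2, neither with a shared peak, and Cd247 had 1 of experiment 1 beside 5 and 4 shared. The Cd4 peak of experiment 1 (chr6:124829332-124829726) lay in an intron, 182 bp from an internal TSS. Cd4 lies on the minus strand at chr6:124814710-124838239, so the 5' end of the gene was farther away. Among 10 myeloid markers Itgam, Cebpb and Elane had one, and Elane no shared peak. The T cell and myeloid shares, 30% each, were close to the 31.4% of all genes. By number, the genes with the most single-experiment peaks were long. In experiment 1 they were Gm20388 (18), Inpp4b (7), Bach2 (6), Txndc11 (6) and Ankrd11 (5), and in experiment 2 Gm20388 (23), Arfip1 (9), Elmo1 (7), 1300010F03Rik (6) and Gm16039 (6). Gm20388 is a gene model of 4434882 bp with 154 and 153 shared peaks, and Txndc11 spans 59740 bp.

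For the RNA of genes near these peaks, genes were grouped by their peaks within 10 kb: 11927 had at least 1 shared peak, 1559 (7.06%) had single-experiment peaks only and 8603 had no peak. Of the 1559, 593 had peaks of experiment 1 only, 796 of experiment 2 only and 170 of both without a shared base. Genes with single-experiment peaks only were expressed at an intermediate level. Their median was 1.42 and 1.35 TPM (transcript counts scaled to gene length and library size) in the 2 control PC libraries, against 21.8 and 22.8 TPM for genes with a shared peak and 0 TPM for genes with no peak. At least 1 TPM was reached by 52.3% and 52.7% of them, by 80.5% and 80.8% of genes with a shared peak and by 13.3% and 13.5% of genes with no peak. In the Xbp1(fl/fl) PBs their medians were 1.61 and 1.959 TPM. Where only peaks within 1 kb of a TSS were counted, 1449 genes had single-experiment peaks only, and their medians in control PCs were 18.1 and 19.5 TPM against 34.6 and 35.7 TPM with a shared peak. The medians cover the 1403 of 1559, 10897 of 11927 and 6779 of 8603 genes that the RNA tables list by the same name. In bulk libraries, fewer cells of a type and less RNA per cell cannot be told apart.

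Among the RNA libraries, Bhlha15 was at 258 and 242 TPM in control and 14.4 and 16.6 TPM in Mist1-deficient PCs, and at 176 and 159 TPM in Xbp1(fl/fl) and 0.210 and 0.551 TPM in Bhlha15(CreER/CreER) PBs. Sdc1 (CD138) was at 395 to 571 TPM in the PCs and 157 to 166 TPM in these PBs, and Cd3e, a T cell receptor subunit, at 8.69 to 15.8 TPM in the PCs and 0 TPM in these PBs. In PCs the summed level of 10 T cell markers was 96.3 and 100.9 TPM in control and 114 and 145 TPM in Mist1-deficient cells, and that of 10 myeloid markers 937 and 576 against 857 and 621 TPM. In the PBs of these 2 genotypes they were 11.3 to 13.1 TPM and 32.0 to 47.1 TPM. The part of these markers in the results was not tested.

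The question of the PC comparison was which genes depend on Mist1. Of 12028 genes tested, 87 (0.723%) were lower and 15 (0.125%) higher in Mist1-deficient PCs under a rule that asked for a fold above 3, an adjusted p below 0.05 from limma and a mean above 5 TPM in the higher group. Of the 748 tested genes with single-experiment peaks only, 3 (0.401%) fell and 4 (0.535%) rose by this rule, against 72 (0.815%) and 3 (0.034%) of 8830 genes with a shared peak and 1 (0.106%) and 5 (0.532%) of 939 genes with no peak. The shares of genes that rose were thus alike with single-experiment peaks only and with no peak, and neither difference was tested. The 87 and 15 include genes that could not be matched by name to the annotation, which left 10517 genes in the groups by peaks. Without control library 1, 2 fell and 2 rose, and without control library 2, 2 fell and 4 rose.

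The 3 that fell each had a peak of experiment 2 over a start site. Plxna3, which encodes plexin A3, a semaphorin receptor, was at 16.7 and 13.7 TPM in control and 1.82 and 2.52 TPM in Mist1-deficient PCs, a log2 fold change of -2.75 ± 0.21 (SE, n = 2 per group, limma adjusted p = 0.00164). Its peak (chrX:71574344-71574781, 438 bp) lay 158 bp from the TSS, with the nearest peak of experiment 1 23501 bp away. Susd2, which encodes a membrane protein with a sushi domain, was at 11.5 and 7.58 TPM in control and 1.13 and 1.12 TPM in deficient cells (log2 fold change -2.93 ± 0.26). Its peak (chr10:75106501-75106956, 456 bp) lay 24 bp from the TSS in an exon. D10Bwg1379e was at 6.803 and 5.54 against 0.907 and 0.865 TPM (log2 fold change -2.64 ± 0.23), with a peak of 1037 bp (chr10:18462927-18463963) at 119 bp from its TSS and a gap of 100516 bp to the nearest peak of experiment 1. D10Bwg1379e was below the filter on low values where either control library was left out, and had no test there. In all 3 genes both control libraries lay above both deficient libraries.

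The 4 that rose had their peaks away from their own start sites. Cldn7, a claudin of tight junctions, went from 2.83 and 2.26 TPM in control to 15.2 and 10.7 TPM in Mist1-deficient PCs, a log2 fold change of 2.31 ± 0.22 (SE, n = 2 per group, limma adjusted p = 0.00235). Its peak of experiment 1 lay 4850 bp from the TSS in an intron of a neighbouring gene. B3galnt1, a glycosyltransferase gene, was at 2.60 and 3.91 against 12.5 and 14.1 TPM (log2 fold change 2.04 ± 0.20). It had 1 peak of each experiment, and that of experiment 2 lay -9177 bp from the TSS. The 2 peaks shared no base but were only 338 bp apart. Both count as shared peaks where a gap of at most 500 bp is taken as shared. Endog, which encodes the mitochondrial endonuclease G and whose name in the RNA tables carries a suffix that other genes share, was at 3.99 and 6.55 against 18.2 and 17.3 TPM (log2 fold change 1.79 ± 0.21), and its peak of experiment 1 (chr2:30033572-30034157) lay 6852 bp from its TSS and within 1 kb of that of another gene. Aire, a regulator of tissue-restricted genes in the thymus, was at 1.74 and 2.57 against 6.45 and 7.57 TPM (log2 fold change 1.69 ± 0.22), with a peak of experiment 2 at 15626 bp from its TSS. The call of Aire was lost with a pseudocount of 1 TPM (log2 fold change 1.37), without control library 1 (1.46) and without deficient library 2 (1.58), and that of Endog without control library 1 (1.47). In all 4 genes both deficient libraries lay above both control libraries.

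**Figure D5:**
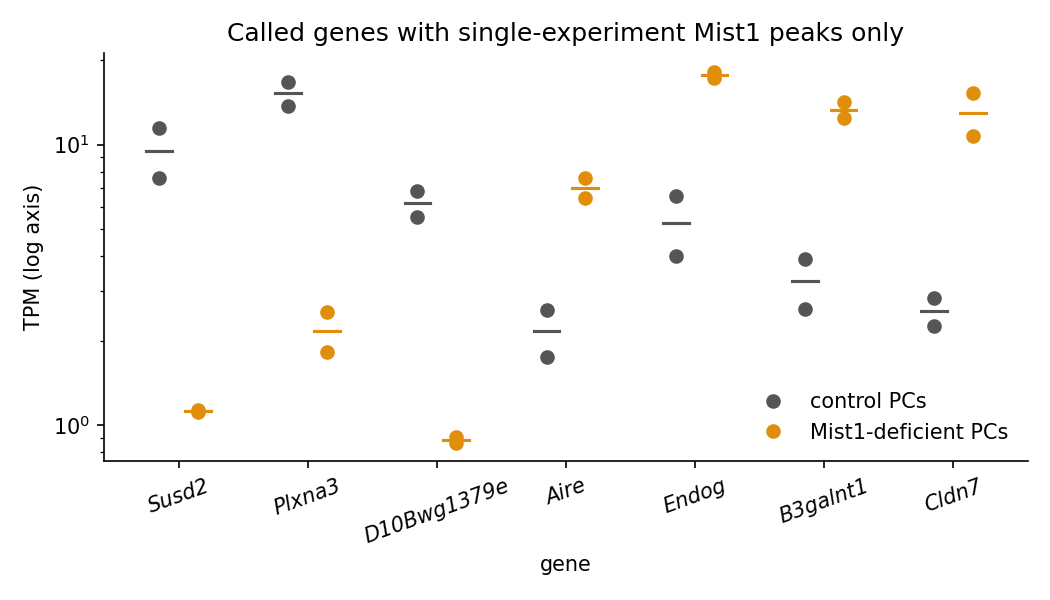
TPM (log axis) of the 7 called genes with single-experiment peaks only, in the 2 control (grey) and the 2 Mist1-deficient (orange) PC libraries, where each point is a library and each line a mean. Susd2, Plxna3 and D10Bwg1379e are lower in both deficient libraries and the other 4 higher, with no overlap between the groups.

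By adjusted p alone, 1953 (16.2%) of the 12028 genes were lower and 1601 (13.3%) higher in Mist1-deficient PCs. Of the 748 genes with single-experiment peaks only 61 (8.16%) were lower and 129 (17.2%) higher, with a median log2 fold change of 0.09 against 0.01 over all genes tested. Of the 8830 genes with a shared peak 1627 (18.4%) were lower and 1172 (13.3%) higher, and of the 939 with no peak 59 (6.28%) and 141 (15.02%). The counts rested on both Mist1-deficient libraries: without the first, 22 of the genes with single-experiment peaks only were lower and 21 higher, and without the second 15 and 14, while 7.98% and 6.87% of all genes were then lower and 3.32% and 2.47% higher. Of the listed genes with single-experiment peaks only, Dnajb9 was at 673 and 663 TPM in control and 707 and 655 TPM in deficient PCs, and Cd4 at 16.7 and 16.6 against 14.1 and 15.5 TPM. Zap70 was at 4.21 and 2.81 against 4.77 and 6.04 TPM (log2 fold change 0.65 ± 0.26, limma adjusted p = 0.112) and Elane at 2.69 and 0.993 against 1.90 and 1.22 TPM. None of these 4 passed the test, and Zap70 passed it without control library 1 (log2 fold change 0.96). Copz2 fell, from 57.1 and 52.3 to 36.1 and 35.5 TPM (log2 fold change -0.59 ± 0.08, limma adjusted p = 0.00577), and it also had 2 shared peaks in each experiment.

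In cultured PBs few genes differed. Of 12125 genes tested, 4 (0.033%) were lower and 2 (0.0165%) higher in Bhlha15(CreER/CreER) than in Xbp1(fl/fl) PBs by the 3-fold rule, and 33 (0.272%) and 6 (0.0495%) by adjusted p alone. None of the 797 tested genes with single-experiment peaks only was called by either rule in limma. An unadjusted limma p under 0.05 was reached by 55 of these 797 genes and by 1267 of all 12125 genes tested. The difference between the 2 comparisons was not tested.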

How the data were processed

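Mist1 binding was measured in 2 pulldown libraries and RNA in 10 libraries. The deposited Mist1 peak lists hold positions on mm9 only, with a score of 0 and the + strand in each line, so the depth, height and p-value of a peak are unknown. Reads had been aligned by the authors with Bowtie 1.0.0, handled with SAMtools 1.9, down-sampled with Picard 2.18.27 where necessary, and peaks called per experiment with MACS against a mature B cell input and filtered by a stringent p-value. The lists used here hold fewer peaks than the study describes, so a peak without a partner may have one among peaks not analysed here. RNA values were deposited as TPM, made by the authors with cutadapt, STAR 2.4.2 and featureCounts 1.5, and immunoglobulin and T cell receptor genes were left out; TPM keep no depth.

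Peaks sharing at least 1 bp were taken as shared. Positions used 22089 uniquely named protein-coding genes of GENCODE for mm9 and all their start sites. E-boxes were counted in the central 200 bp, and 127943 genome windows of 200 bp at steps of 20 kb served as background. Differences at matched width, GC content or position weighted the shared peaks to the classes of the single-experiment peaks. Intervals are exact 95% binomial intervals for shares and normal ones for differences, for counting error only.

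TPM were scaled by median-of-ratios factors and tested with limma 3.58.1 in R 4.3.3 on log2(TPM + 0.1), keeping genes that reached 1 TPM in 2 or more libraries, with Benjamini-Hochberg adjustment. PCs were fitted with their 4 libraries and PBs with all 6. Fold changes are on this scale, which understates the change of low genes. Tests were checked on simulated data. Alternatives changed the overlap, windows, start sites, pseudocount, filter, scaling and libraries; the matched comparisons by GC, position and distance, the TSS comparison by width and the chromosome X width class were added after seeing the data. Peaks and genes were named as the 5 widest peaks and the 5 genes with the most peaks of each set, all genes of the lists, all genes called at 3-fold and the peaks nearest the limit; items withheld from this text are not reported here. The peak sets, gene lists and tests were chosen with earlier results of these data known. Python 3.11.15 with pandas 2.3.3 and scipy 1.17.1 was used.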

Additional observations from a re-analysis of the deposited data

How the results depend on the processing

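Where sharing needed a 50% overlap, experiment 1 had 6911 single-experiment peaks. Where only peaks of at least 500 bp were kept in both lists, it had 3029 by the 1 bp rule. At 50% overlap the median width of single-experiment peaks was 537 and 569 bp. The TSS share was 25.99% and 26.4% within 2.5 kb, 16.0% and 16.0% with 1 TSS for each gene, 17.6% and 17.4% where a gap of at most 500 bp counted as shared, and 17.6% and 17.5% by the peak centre. CATATG was in 12.9% and 13.9% of 100 bp windows, 28.7% and 31.1% of 400 bp windows and 23.4% and 25.1% with the 500 bp gap. CAGCTG was in 18.2% and 19.3% of 100 bp and 38.04% and 41.0% of 400 bp windows. Shared peaks held CAGCTG in 17.4% and 16.5% of 100 bp and 44.6% and 43.8% of 400 bp windows. The difference between single-experiment and shared peaks in CATATG stayed positive at matched width (4.05 and 7.36 points), GC content (7.54 and 10.3) and position (8.09 and 10.6). For CAGCTG it was -11.4 and -9.08 points at matched width and -3.17 and -0.022 at matched position, which in experiment 2 turned its direction. The TSS difference was -0.056 and 0.577 points at matched width, with the direction turned in experiment 2, and -8.06 and -8.04 at matched GC content.

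Of genes with single-experiment peaks only, leaving out 1 PC library at a time left 2 to 3 lower and 2 to 4 higher by the 3-fold rule, and 15 to 61 lower and 14 to 161 higher by adjusted p. In PBs the adjusted p called 1 lower gene with only the 4 libraries compared, 1 higher gene with TPM as deposited and 2 with a 5 TPM filter, and 0 to 1 lower or higher without a single library. Over the fits without 1 library the log2 fold change of Dnajb9 ran from -0.0022 (without Mist1-deficient replicate 1) to 0.10, and that of Elane from -0.79 to 0.62 (without control replicate 1), with 0.21 without Mist1-deficient replicate 2. A group left with 1 library was assumed to vary like the other. The causes were not tested. No paired analysis was possible because the labels carry no replicate numbers. With 1 peak list left out no single-experiment peak is defined. The depth and height of the peaks are unknown, which limits what absence from a list shows.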
